A study of Mus musculus with 6 samples.

Results

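Type I interferon-stimulated genes are the genes that cells switch on after sensing interferon alpha or beta, and 39 of them, namely antiviral effectors, nucleic acid sensors and interferon transcription factors, were followed here in mouse liver during endotoxin shock. They were chosen by symbol, with the Trim and Gbp genes left out. Of the 39 genes, 38 had a row in the table of 19613 gene rows, and 37 entered the test among 9218 genes that had an FPKM of 1 or more in 3 or more libraries. Trex1, a DNA exonuclease, was not analysed here, and Ifit1bl1 lay below the expression limit. The 6 libraries were 3 of knockout (KO) and 3 of wild-type (WT) mouse liver, each taken 6 h after an intraperitoneal injection of lipopolysaccharide (LPS) at 15 mg per kg. All 6 libraries are of liver after LPS, so the values compare the genotypes after endotoxin and hold no untreated baseline. The sources used here give no strain, sex or age, nor whether the knockout was in all cells or in some. Separate animals are not stated for the libraries, so the p-values measure only the spread between libraries, which may be technical, and KO livers and WT livers stand below for the libraries of each genotype.

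LPS, the endotoxin of Gram-negative bacteria, is sensed by TLR4, which through the adaptors TRAM and TRIF turns on the transcription factor IRF3 and with it interferon beta. Interferon then binds the receptor IFNAR on the same and neighbouring cells, and the kinases JAK1 and TYK2 phosphorylate STAT proteins such as STAT2, which joins IRF9 in the complex ISGF3. ISGF3 binds the interferon-stimulated response element (ISRE) in promoters of interferon-stimulated genes, and many of the products, IRF7, STAT2 and IRF9 among them, feed back on the same circuit. In liver, hepatocytes, macrophages and endothelial cells all respond to interferon. In bulk RNA from whole liver, fewer cells of a type and less RNA per cell cannot be told apart.

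The promoters are shown because the response element is the site that ISGF3 binds, although the list was chosen by symbol and not by promoter. RefSeq promoter entries on GRCm38.p6 were at hand for 29 of the 39 genes, and the 250 bases before the gene start were searched on both strands for the ISRE letters, which are GAAA, any 2 bases and GAAA, or TTTC, any 2 bases and TTTC when read on the other strand, with overlapping matches each counted. A match was found in 11 of the 29 genes (37.9%), against 3.46% of all 27025 genes in the promoter table. The letters of the gamma-activated site, TTCNNNGAA, which read the same on both strands, were found in 5 of the 29 genes (17.2%), against 8.13% of all genes. In the 4 stretches of 100 bases below, given 5′ to 3′ on the gene's own strand, capitals mark the ISRE letters. Ifit1 and Rsad2 stand for genes that lay lower in KO livers, and Isg15 and Bst2 for genes that did not.
Ifit1: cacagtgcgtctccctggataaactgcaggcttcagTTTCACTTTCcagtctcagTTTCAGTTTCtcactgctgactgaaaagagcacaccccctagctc
Rsad2: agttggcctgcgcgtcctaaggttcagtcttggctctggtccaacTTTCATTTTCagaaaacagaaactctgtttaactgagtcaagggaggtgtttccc
Isg15: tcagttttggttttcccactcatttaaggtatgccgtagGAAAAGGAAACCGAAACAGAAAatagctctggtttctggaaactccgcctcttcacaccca
Bst2: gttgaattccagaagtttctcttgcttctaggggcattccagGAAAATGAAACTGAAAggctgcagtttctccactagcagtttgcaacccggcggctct
The Ifit1 stretch, chr19:34640749-34640848 on the plus strand, runs from 140 to 41 bases before the start and holds 2 separate matches. The Rsad2 stretch, chr12:26456518-26456617 on the minus strand, runs from 165 to 66 bases before the start and holds 1 match. The Isg15 stretch, chr4:156200836-156200935 on the minus strand, runs from 117 to 18 bases before the start and holds 3 overlapping matches. The Bst2 stretch, chr8:71537545-71537644 on the minus strand, runs from 172 to 73 bases before the start and holds 2 overlapping matches. As a description, the median log2 fold change was -0.18 over the 10 tested genes with a match and -0.16 over the 17 tested genes with an entry and no match. It was -0.35 over the 10 tested genes without an entry. Below 0 lay 6 of the 10 genes with a match, 16 of the 17 with an entry and no match, and 9 of the 10 without an entry. No match means only that these exact letters were absent from the 250 bases searched.

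Reads counted in genes, recovered from the steps of the FPKM values, numbered from 34809902 to 44689966 in KO libraries and from 26307125 to 34553264 in WT libraries. A tested interferon-stimulated gene had between 91 and 80078 reads in a library. The reads in genes came to 122% and 130% of the divisor behind the FPKM values in KO replicates 2 and 3, against 75.4% and 76.1% in WT replicates 1 and 2, and to 98.3% in KO replicate 1 and 97.9% in WT replicate 3. The sources used here do not say what the authors divided by. On the values as deposited, the median over all tested genes was 0.45 higher in KO livers on the log2 scale. All levels below were therefore scaled by median-of-ratios factors and are called scaled FPKM, and each log2 fold change is KO minus WT on log2(scaled FPKM + 1), which understates the change of genes with low levels.

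No interferon-stimulated gene passed an adjusted p of 0.05 between KO and WT livers in limma, but as a list they lay lower in KO livers. Of the 37 tested genes, 0 were called, against 1.13% of all tested genes called in either direction, 0.521% as higher and 0.608% as lower in KO livers, and limma-voom on the recovered reads also called 0. The log2 fold change was below 0 in 31 of the 37 (83.8%), against 48.9% of all tested genes, and the median was -0.20, against 0.01 over all tested genes. A lean to lower KO values was not particular to this list. Below 0 were also 7 of 8 hepatocyte markers (median -0.14) and 5 of 6 tested sinusoidal endothelial markers (median -0.13). The 4 tested erythroid markers all lay above 0 (median 0.35). On the values as deposited, 5 of the 37 lay below 0 and 26 below the median of all tested genes, and the list median was 0.33. An unadjusted p under 0.05 was reached by 9 of the 37 (24.3%), against 13.8% of all tested genes in either direction, and all 9 were lower in KO livers, against 6.65% of all tested genes that were lower and 7.18% that were higher. In 8 genes (21.6%) the 3 KO and 3 WT libraries did not overlap, close to the 19.7% of all tested genes in either direction, but all 8 were lower in KO livers, against 9.06% of all tested genes that were lower and 10.7% that were higher. These were Ifit1, Ifit3, Mx1, Mx2, Dhx58, Cmpk2, Rtp4 and Zbp1. A two-sided exact permutation test over the 6 libraries gave each of the 8 p = 0.1, the smallest it can give with 3 against 3.

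The plot of fold changes with intervals shows how wide the range within the list was. At the low end stood Mx1, Mx2, Ifit1 and Cmpk2, and 17 of the 37 genes lay at -0.25 or lower, against 12.6% of all tested genes. At the other end 11 genes lay within 0.1 of 0, among them the ISGF3 genes Stat2 and Irf9, and 28 of the 37 intervals included 0.

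**Figure D1:**
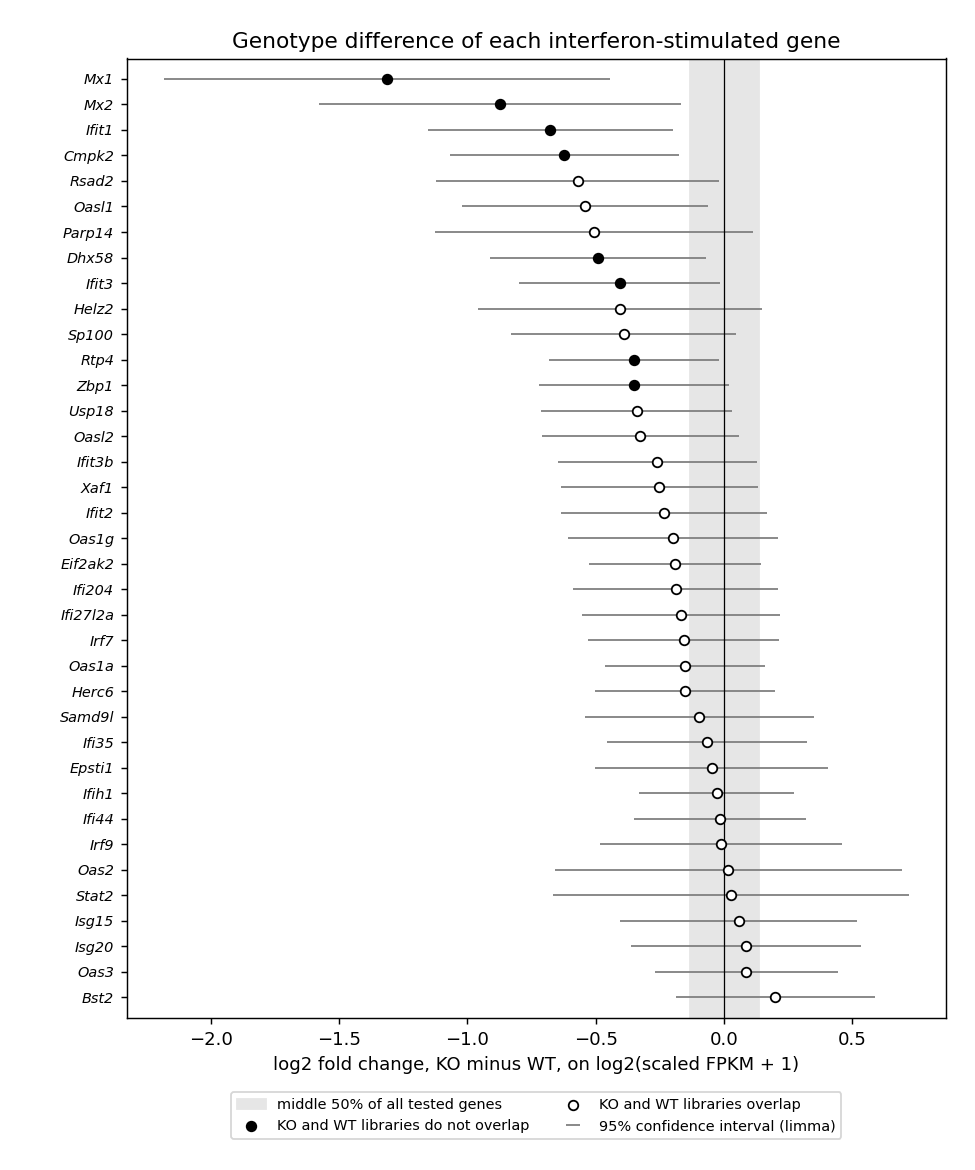
Log2 fold change, KO minus WT, of the 37 tested interferon-stimulated genes (y axis), with points for the limma estimate on log2(scaled FPKM + 1) and bars for the 95% confidence interval. Filled points mark genes whose KO and WT libraries do not overlap, and the grey band holds the middle 50% of all tested genes, -0.13 to 0.13. The genes run from Mx1 at -1.31 to Bst2 at 0.20, with 31 of the 37 below 0, against 5 of the 37 on the values as deposited.

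The libraries that lay furthest from the gene mean over the list were 1 of each genotype. KO replicate 3 was the lowest of the 6 libraries in 25 of the 37 genes, against 12.5% of all tested genes, and WT replicate 2 was the highest in 25, against 18.0% of all tested genes. Both held in 21 genes. The median deviation from the gene mean, on the log2 scale, was 0.06 in KO replicate 1, -0.04 in KO replicate 2 and -0.34 in KO replicate 3, against 0.02 in WT replicate 1, 0.33 in WT replicate 2 and 0.03 in WT replicate 3. KO replicates 1 and 2 thus lay near WT replicates 1 and 3, and KO replicate 1 lay above at least 1 WT library in 25 genes. Without KO replicate 3 the median log2 fold change of the list was -0.14, and 1 gene, Mx1, had an unadjusted p under 0.05. Without WT replicate 2 it was -0.12, with 5 such genes, namely Mx1, Cmpk2, Ifit1, Mx2 and Rsad2, named after their values were seen. Without both, a choice made after seeing the data, the median was -0.01, and 22 of the 37 genes lay below 0. Mx1 was then the gene with the lowest adjusted p, 0.603 in limma, and the 1 gene with an unadjusted p under 0.05. Over all alternatives its adjusted p ran from 0.0133 to 0.603. Leaving out the lowest KO library or the highest WT library shrinks a difference toward lower KO values whatever its source. The fits without KO replicate 3, WT replicate 2 or both therefore cannot show where the difference came from.

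Other measures stood apart in 1 or both of these libraries. The scaling factor was largest in KO replicate 3, at 1.40, and smallest in WT replicate 2, at 0.738. KO replicate 3 also had the most reads in genes. The summed level of 11 T and NK cell markers was 5.50, 8.88 and 6.92 scaled FPKM in KO replicates 1, 2 and 3, against 6.02, 11.1 and 6.64 scaled FPKM in WT replicates 1, 2 and 3. It was highest in WT replicate 2, but lowest in KO replicate 1 rather than 3. Most of the sum was Gzmb, at 3.43, 6.07 and 4.06 scaled FPKM in KO replicates 1, 2 and 3, against 4.31, 7.25 and 4.02 scaled FPKM in WT replicates 1, 2 and 3. Ifng, the gene of interferon gamma, which T and NK cells make, was also highest in WT replicate 2 and lowest in KO replicate 1. Ifng had 0.656, 1.55 and 0.820 scaled FPKM in KO replicates 1, 2 and 3, against 1.21, 3.13 and 0.955 scaled FPKM in WT replicates 1, 2 and 3. It rested on 30 to 76 reads in a KO library and 33 to 136 reads in a WT library. Neutrophil, stellate cell and conventional dendritic cell marker sums were also highest in WT replicate 2, at 171, 34.5 and 1.11 scaled FPKM. The dendritic cell sum was lowest in KO replicate 3, at 0.477 scaled FPKM, just under 0.478 in WT replicate 1. Sums of the remaining marker lists were highest in other libraries. The part of the scaling, of depth and of any of these cells in the library pattern was not tested.

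On the log2(scaled FPKM + 1) scale, the list varied more among libraries of a genotype than all tested genes did. The median SD among libraries on the log2 scale was 0.27 in KO livers for the interferon-stimulated genes and 0.14 for all tested genes, and in WT livers 0.25 for the interferon-stimulated genes and 0.17 for all tested genes. The added 1 narrows the SD of genes with low levels, and genes were not matched by level. A mean FPKM of at least 5 was reached by 36 of the 37 genes, against 4682 genes of the table, of which 9218 were tested. The ratio of the highest to the lowest library was taken without the added 1. It had a median of 1.65 over the list, with a range of 1.26 to 6.93, and a median of 1.53 over all tested genes. The part of expression level in these spreads was not tested. The summed level of all 38 genes in the table was 7379, 5609 and 5301 scaled FPKM in KO replicates 1, 2 and 3, against 6743, 7954 and 6802 scaled FPKM in WT replicates 1, 2 and 3. The groups overlapped, with KO replicate 1 above WT replicates 1 and 3. Without Isg15 the sum was 4834, 3901 and 3570.0 scaled FPKM in KO replicates 1, 2 and 3, against 5078, 5904 and 4843 scaled FPKM in WT replicates 1, 2 and 3, and KO replicate 1 lay just under the lowest WT library.

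**Figure D2:**
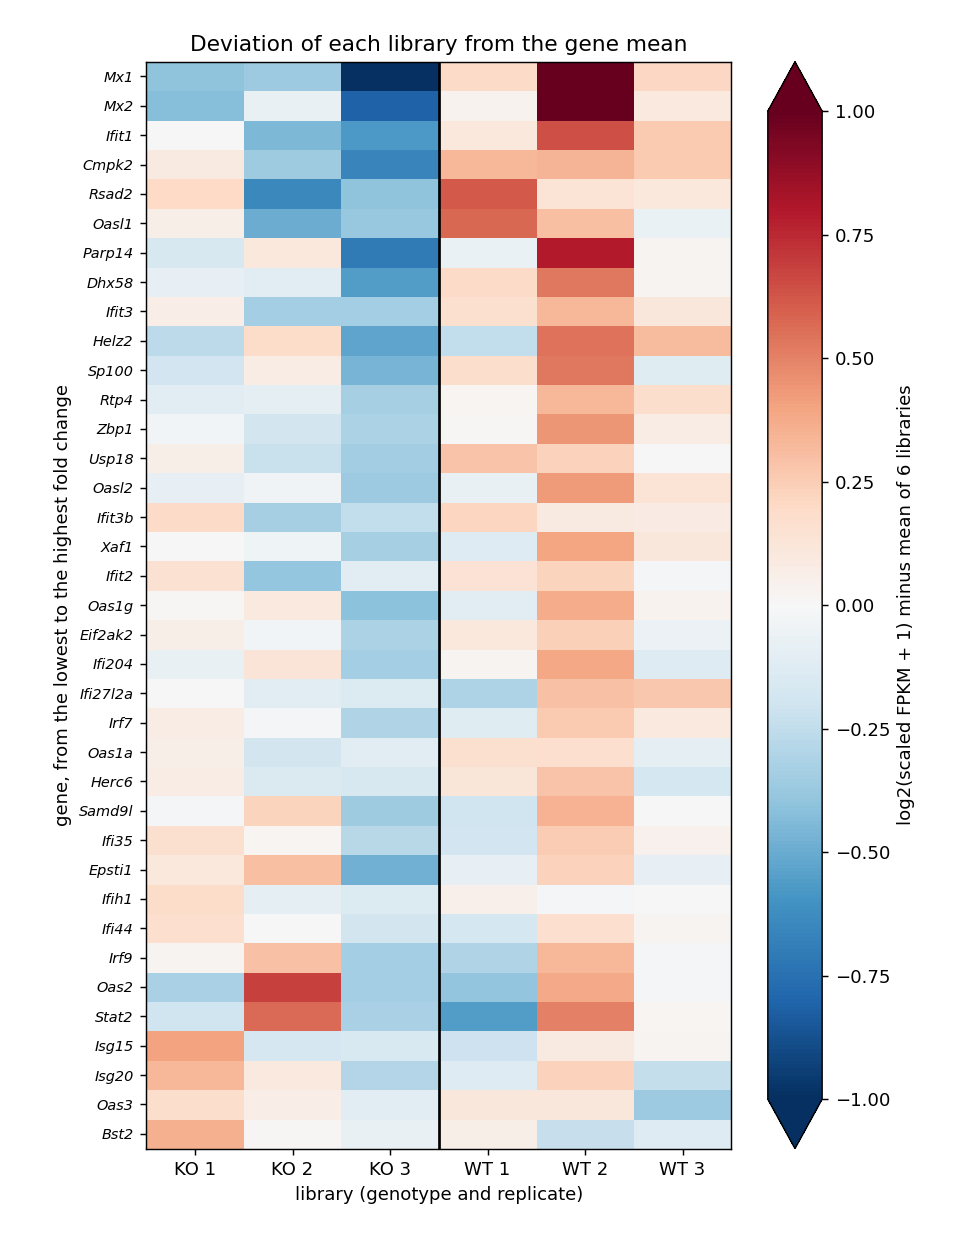
Deviation of each library (x axis, 3 KO libraries left of the line and 3 WT libraries right of it) from the mean of the 6 libraries for each of the 37 tested interferon-stimulated genes (y axis), as a colour on the log2(scaled FPKM + 1) scale that ends at -1 and 1. The KO 3 column is below the gene mean in every row, and the WT 2 column is above it in 35 of the 37 rows.

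The MX proteins are dynamin-like GTPases that trap viral ribonucleoproteins, and their genes showed the largest differences of the list. Mx1 had 89.8, 92.4 and 51.3 scaled FPKM in KO replicates 1, 2 and 3, against 136, 356 and 138 scaled FPKM in WT replicates 1, 2 and 3. All 3 KO libraries lay below all 3 WT libraries, with KO replicate 3 lowest and WT replicate 2 far above the other WT libraries. The mean was 77.8 ± 23.0 scaled FPKM in KO livers and 210.0 ± 126 scaled FPKM in WT livers (SD, n = 3 each). The log2 fold change was -1.31 (SE 0.38, limma adjusted p = 0.166), with a 95% interval of -2.18 to -0.44, and Mx1 ranked 435 of 9218 tested genes by unadjusted p. Mx2 had 34.9, 44.8 and 26.6 scaled FPKM in KO replicates 1, 2 and 3, against 48.6, 108 and 50.8 scaled FPKM in WT replicates 1, 2 and 3. The groups again did not overlap, and the same libraries stood at the ends, with a log2 fold change of -0.87 (SE 0.31, limma adjusted p = 0.261). Without KO replicate 3 and WT replicate 2 together, the fold change was -0.59 for Mx1 and -0.32 for Mx2. The sources used here do not say how reads that match more than 1 gene were assigned, and the split between close paralogs such as Mx1 and Mx2, Ifit3 and Ifit3b, or Oas1a and Oas1g is uncertain.

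Rsad2 and Cmpk2 are neighbouring genes with linked roles. Rsad2 encodes viperin, which makes a chain-terminating nucleotide from CTP, and Cmpk2 encodes a mitochondrial kinase that supplies nucleotides. Cmpk2 had 201, 147 and 119 scaled FPKM in KO replicates 1, 2 and 3, against 238, 238 and 226 scaled FPKM in WT replicates 1, 2 and 3. The WT libraries lay within a narrow band and the KO libraries did not reach it, and the log2 fold change was -0.62 (SE 0.20, limma adjusted p = 0.202). Rsad2 had 354, 197 and 233 scaled FPKM in KO replicates 1, 2 and 3, against 473, 339 and 332 scaled FPKM in WT replicates 1, 2 and 3. KO replicate 1 lay above WT replicates 2 and 3, so the groups overlapped, and KO replicate 2 rather than 3 was lowest. The log2 fold change of Rsad2 was -0.57 (SE 0.24, limma adjusted p = 0.351), and without KO replicate 3 and WT replicate 2 together it was -0.59.

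Among the other antiviral effectors, Bst2 encodes tetherin, which holds budding virions at the cell surface, and it had the highest fold change of the list. Bst2 had 540.0, 426 and 401 scaled FPKM in KO replicates 1, 2 and 3, against 439, 359 and 386 scaled FPKM in WT replicates 1, 2 and 3. KO replicate 1 was highest and the other libraries were mixed, so that the log2 fold change of 0.20 (SE 0.17, limma adjusted p = 0.668) lay within the spread. Isg20, an exonuclease that degrades RNA, had 60.6 to 93.9 scaled FPKM in KO livers, against 63.1 to 87.8 scaled FPKM in WT livers, and its log2 fold change was 0.09 (SE 0.20, limma adjusted p = 0.901). Samd9l, an inhibitor of translation in infected cells, had 39.3 to 59.2 scaled FPKM in KO livers, against 43.9 to 64.7 scaled FPKM in WT livers, and its log2 fold change was -0.10 (SE 0.20, limma adjusted p = 0.885). Of the 7 tested effectors, the MX genes included, 5 lay below 0 on the scaled values, with a median of -0.57, and 4 on the values as deposited.

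The IFIT proteins bind viral RNA and keep it from being translated. All 4 tested genes of the family lay below 0 on the scaled values, with a median of -0.33, while on the values as deposited Ifit1 alone did so. Ifit1 had 574, 421 and 386 scaled FPKM in KO replicates 1, 2 and 3, against 619, 899 and 687 scaled FPKM in WT replicates 1, 2 and 3. No KO library reached the lowest WT library, and the mean was 460.4 ± 100.2 scaled FPKM in KO livers and 735 ± 146 scaled FPKM in WT livers (SD, n = 3 each). The log2 fold change was -0.68 (SE 0.21, limma adjusted p = 0.194), with a 95% interval of -1.15 to -0.20, and it was -0.41 without KO replicate 3 and WT replicate 2 together. Ifit3 had 939, 708 and 707 scaled FPKM in KO replicates 1, 2 and 3, against 999, 1129 and 970.0 scaled FPKM in WT replicates 1, 2 and 3. KO replicate 1 lay just below the WT libraries and the other KO libraries well below them, with a log2 fold change of -0.41 (SE 0.17, limma adjusted p = 0.350). Ifit2 had 398, 273 and 331 scaled FPKM in KO replicates 1, 2 and 3, against 397, 419 and 353 scaled FPKM in WT replicates 1, 2 and 3. Its groups overlapped, with KO replicate 1 above WT replicates 1 and 3, and the log2 fold change was -0.24 (SE 0.18, limma adjusted p = 0.616). Ifit3b, a near copy of Ifit3, had 167 to 239.8 scaled FPKM in KO livers, against 223 to 245 scaled FPKM in WT livers, with a log2 fold change of -0.26 (SE 0.17, limma adjusted p = 0.554). Ifit1bl1 was at 0.654 to 1.38 scaled FPKM in KO livers, against 0.617 to 1.16 scaled FPKM in WT livers, and was not tested.

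The OAS enzymes sense double-stranded RNA and make the oligoadenylates that activate RNase L, while the OAS-like protein Oasl1 lacks that activity. The family stood on both sides of 0 on the scaled values, with 4 of 6 genes below 0 and a median of -0.18, and all 6 lay above 0 on the values as deposited. Oasl1, which in mouse holds back translation of Irf7, had 127, 86.1 and 93.2 scaled FPKM in KO replicates 1, 2 and 3, against 181, 150.3 and 116 scaled FPKM in WT replicates 1, 2 and 3. KO replicate 1 lay above WT replicate 3, so the groups overlapped, and the log2 fold change was -0.54 (SE 0.21, limma adjusted p = 0.307). Oasl2 had 37.4 to 47.3 scaled FPKM in KO livers, against 46.0 to 65.7 scaled FPKM in WT livers, with a log2 fold change of -0.33 (SE 0.17, limma adjusted p = 0.433). The remaining genes of the family were closer to 0 than Oasl1 and Oasl2. Oas1a had a log2 fold change of -0.15 (SE 0.14, limma adjusted p = 0.691), and Oas1g had -0.20 (SE 0.18, limma adjusted p = 0.692). Oas2 ran at 23.1 to 48.0 scaled FPKM in KO livers, against 22.3 to 38.6 scaled FPKM in WT livers, with a log2 fold change of 0.02 (SE 0.30, limma adjusted p = 0.986). Oas3 ran at 4.69 to 5.97 scaled FPKM in KO livers, against 3.79 to 5.67 scaled FPKM in WT livers, with a log2 fold change of 0.09 (SE 0.16, limma adjusted p = 0.870).

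ISG15 is a ubiquitin-like protein that is joined to other proteins, HERC6 is its ligase in mouse, and USP18 removes it and also blocks signalling at the interferon receptor. Isg15 had the highest level of the list and showed no difference beyond the spread. It had 2544, 1708 and 1731 scaled FPKM in KO replicates 1, 2 and 3, against 1665, 2049.9 and 1959 scaled FPKM in WT replicates 1, 2 and 3. KO replicate 1 was the highest library and WT replicate 1 the lowest, and the log2 fold change was 0.06 (SE 0.20, limma adjusted p = 0.936), with a 95% interval of -0.40 to 0.52. Usp18 had 231, 189.6 and 174 scaled FPKM in KO replicates 1, 2 and 3, against 271, 260.0 and 221 scaled FPKM in WT replicates 1, 2 and 3. KO replicate 1 lay above WT replicate 3 alone among the WT libraries, and the log2 fold change was -0.34 (SE 0.16, limma adjusted p = 0.403). Herc6 had 25.5 to 30.2 scaled FPKM in KO livers, against 25.2 to 35.1 scaled FPKM in WT livers, with a log2 fold change of -0.15 (SE 0.15, limma adjusted p = 0.731).

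**Figure D3:**
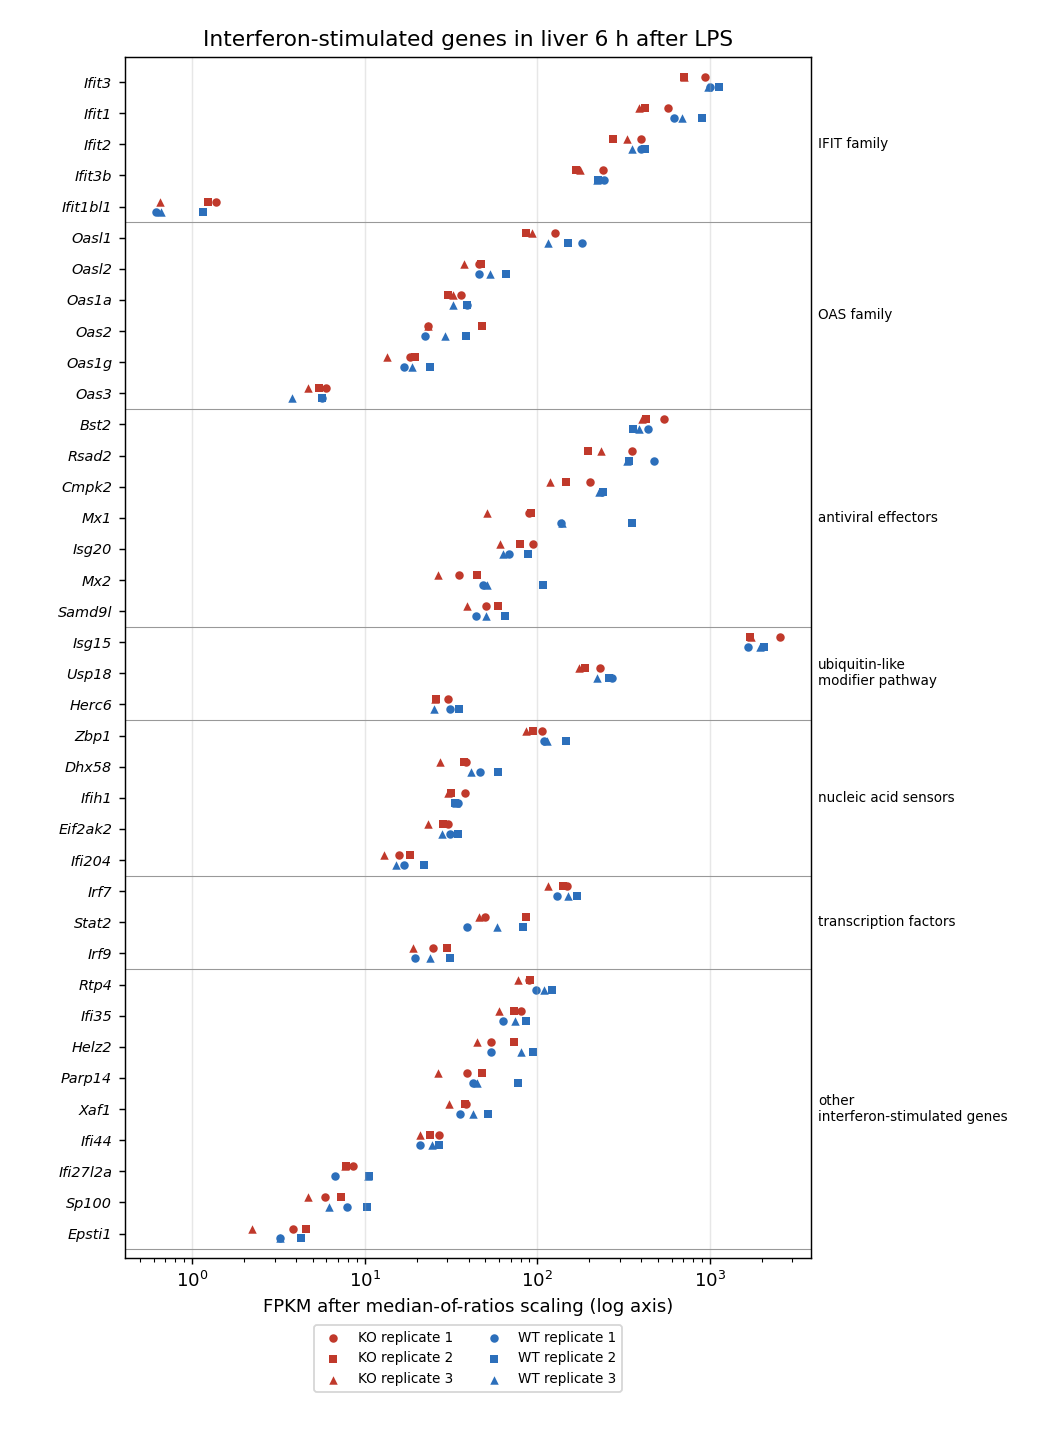
Level of the 38 interferon-stimulated genes in the table (y axis, grouped by role) in scaled FPKM on a log axis, with 1 point per library, 3 for KO livers and 3 for WT livers. Levels run from Isg15, at 1665 to 2544 scaled FPKM, to Ifit1bl1, at 0.617 to 1.38 scaled FPKM, and the Mx1, Ifit1 and Cmpk2 libraries of KO livers lie left of those of WT livers.

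The sensors recognise nucleic acids and drive interferon production or cell death. All 5 lay below 0 on the scaled values, with a median of -0.19, while all 5 lay above 0 on the values as deposited and Ifih1 lay above 0 in TPM and after quantile normalization. Dhx58, which encodes LGP2, a regulator of the RNA helicase sensors, had 38.4, 37.7 and 27.3 scaled FPKM in KO replicates 1, 2 and 3, against 46.4, 58.8 and 41.4 scaled FPKM in WT replicates 1, 2 and 3. The groups did not overlap, and the log2 fold change was -0.49 (SE 0.18, limma adjusted p = 0.291). Zbp1, a Z-form nucleic acid sensor that can start necroptosis, had 106, 94.8 and 86.1 scaled FPKM in KO replicates 1, 2 and 3, against 109, 146 and 114 scaled FPKM in WT replicates 1, 2 and 3. KO replicate 1 came within a few units of WT replicate 1 without reaching it, and the log2 fold change was -0.35 (SE 0.16, limma adjusted p = 0.385). Ifih1, which encodes the RNA sensor MDA5, had 30.4 to 38.3 scaled FPKM in KO livers, against 33.3 to 34.9 scaled FPKM in WT livers, with a log2 fold change of -0.03 (SE 0.13, limma adjusted p = 0.953). Eif2ak2, which encodes the kinase PKR that stops translation, had 23.2 to 30.3 scaled FPKM in KO livers, against 27.9 to 34.5 scaled FPKM in WT livers, with a log2 fold change of -0.19 (SE 0.15, limma adjusted p = 0.630). Ifi204, a mouse relative of the human DNA sensor IFI16, had 12.9 to 18.3 scaled FPKM in KO livers, against 15.1 to 22.1 scaled FPKM in WT livers, with a log2 fold change of -0.19 (SE 0.18, limma adjusted p = 0.703).

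Among the transcription factors of the response, Stat2 and Irf9 had fold changes within 0.1 of 0, while Irf7 lay lower, at -0.16. Stat2 varied most among libraries, with a ratio of the highest to the lowest library of 2.21, against 1.62 for Irf9 and 1.47 for Irf7. Stat2 and Irf9 encode parts of ISGF3, and Irf7 drives the later wave of interferon alpha genes. Stat2 had 50.02, 85.7 and 46.0 scaled FPKM in KO replicates 1, 2 and 3, against 38.8, 82.1 and 58.5 scaled FPKM in WT replicates 1, 2 and 3. Replicate 2 was the highest library in KO livers and in WT livers, and the log2 fold change was 0.03 (SE 0.30, limma adjusted p = 0.983), with a 95% interval of -0.67 to 0.72. Irf9 had 19.1 to 30.1 scaled FPKM in KO livers, against 19.6 to 31.0 scaled FPKM in WT livers, with a log2 fold change of -0.01 (SE 0.21, limma adjusted p = 0.985). Irf7 had 115 to 149 scaled FPKM in KO livers, against 130.3 to 169 scaled FPKM in WT livers, with a log2 fold change of -0.16 (SE 0.16, limma adjusted p = 0.743). KO replicate 2 and WT replicate 2 were the highest 2 libraries in 8 genes, namely Stat2, Irf9, Oas1g, Oas2, Parp14, Ifi204, Samd9l and Epsti1. On the values as deposited, Stat2 passed the test as higher in KO livers, at 0.58 (limma adjusted p = 0.0472), beside a median of 0.45 over all tested genes, of which 29.3% were then called and 28.7% as higher. Its adjusted p ran from 0.0472 to 0.992 over all alternatives.

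The remaining 9 genes all lay below 0 on the scaled values, with a median of -0.25, while all 9 lay above 0 on the values as deposited, Ifi44, Ifi35 and Epsti1 in TPM, and Ifi44 and Ifi35 after quantile normalization. Rtp4, an interferon-induced receptor transporter protein, had 89.9, 90.8 and 76.7 scaled FPKM in KO replicates 1, 2 and 3, against 98.2, 122 and 109.6 scaled FPKM in WT replicates 1, 2 and 3. The groups did not overlap, and the log2 fold change was -0.35 (SE 0.15, limma adjusted p = 0.337). Sp100, a component of nuclear bodies, had 5.87, 7.23 and 4.67 scaled FPKM in KO replicates 1, 2 and 3, against 7.86, 10.3 and 6.22 scaled FPKM in WT replicates 1, 2 and 3. KO replicate 2 lay above WT replicate 3, and the log2 fold change was -0.39 (SE 0.19, limma adjusted p = 0.410). Parp14, which adds ADP-ribose to proteins, had the lowest fold change of these genes, -0.51 (SE 0.27, limma adjusted p = 0.455), with libraries at 26.6 to 47.5 scaled FPKM in KO livers, against 42.1 to 77.2 scaled FPKM in WT livers. Helz2, a helicase and coactivator, had a log2 fold change of -0.41 (SE 0.24, limma adjusted p = 0.512), and Xaf1, which counters the apoptosis inhibitor XIAP, had -0.25 (SE 0.17, limma adjusted p = 0.565). Ifi27l2a, Ifi35, Epsti1 and Ifi44 lay between -0.17 and -0.01.

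The genes around the response were read from lists of its ligands, receptors, factors, routes and inhibitors, and 0 genes of these lists were called. Of the 21 ligand genes listed, 3 had a row, and Ifnb1 and the other 17 were not analysed here. Ifnab was above 0 in KO replicate 1 alone, at 0.0536 scaled FPKM from 2 reads, and Ifnk in WT replicate 3 alone, at 0.0931 scaled FPKM from 2 reads. Ifng had a log2 fold change of -0.41 (SE 0.28, limma adjusted p = 0.573). Among receptors and kinases, 7 genes were tested, 3 below 0 on the scaled values and 0 on the values as deposited, with a scaled median of 0.00. The interferon receptor chains had a log2 fold change of 0.13 (SE 0.11, limma adjusted p = 0.656) for Ifnar1 and of -0.03 (SE 0.15, limma adjusted p = 0.953) for Ifnar2. The receptor kinases had 0.06 (SE 0.11, limma adjusted p = 0.868) for Jak1 and 0.20 (SE 0.20, limma adjusted p = 0.727) for Tyk2. Jak2, the kinase of the interferon gamma receptor, had -0.26 (SE 0.12, limma adjusted p = 0.389).

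The STAT and IRF factors read outside the list all lay below 0 on the scaled values, 6 of 6 tested, with a median of -0.14, while all 6 were above 0 on the values as deposited, and Irf3 in TPM. Irf3, which starts interferon beta transcription, had a log2 fold change of -0.00 (SE 0.14, limma adjusted p = 0.989). Irf5, a factor for inflammatory cytokines, had -0.36 (SE 0.10, limma adjusted p = 0.165). Irf2, a repressor at ISRE sites, had -0.43 (SE 0.19, limma adjusted p = 0.357), and Irf1, an interferon-induced activator at such sites, had -0.21 (SE 0.18, limma adjusted p = 0.678).

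Of the TLR4, TRIF and cytosolic routes to interferon, 12 genes were tested, 7 below 0 on the scaled values and 1 on the values as deposited, with a scaled median of -0.03. Mavs, the mitochondrial adaptor of the RNA helicase sensors, came closest to the threshold and lay higher in KO livers. It had 5.64, 5.88 and 6.56 scaled FPKM in KO replicates 1, 2 and 3, against 3.77, 2.63 and 3.61 scaled FPKM in WT replicates 1, 2 and 3. The groups did not overlap, and the log2 fold change was 0.70 (SE 0.13, limma adjusted p = 0.0507). Mavs passed the threshold with robust variance moderation (limma adjusted p = 0.0499), with genes limited to a mean FPKM of at least 5 (0.0463), without WT replicate 1 (0.0433), with sample weights (0.0117), with the replicate number as a block (0.0259) and on the values as deposited (0.000129), and its adjusted p ran from 0.000129 to 0.401 over all alternatives. Tlr3, the endosomal sensor of double-stranded RNA, had 7.90, 8.20 and 4.53 scaled FPKM in KO replicates 1, 2 and 3, against 11.2, 16.2 and 9.70 scaled FPKM in WT replicates 1, 2 and 3. The groups did not overlap, KO replicate 3 was lowest and WT replicate 2 highest, and the log2 fold change was -0.77 (SE 0.24, limma adjusted p = 0.188). Tlr3 passed the threshold with sample weights (limma adjusted p = 0.0466) and with the replicate block (0.0259), and its adjusted p ran from 0.0259 to 0.861 over all alternatives. Sting1, the adaptor of cytosolic DNA sensing, had -0.34 (SE 0.14, limma adjusted p = 0.326).

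The negative regulators stood on both sides of 0, with 6 of 14 tested genes below 0 on the scaled values and 0 on the values as deposited, and a scaled median of 0.02. Socs1, an inhibitor of JAK kinases, had a log2 fold change of -0.13 (SE 0.14, limma adjusted p = 0.746). Irf2bp1, a partner of IRF2, had 0.31 (SE 0.10, limma adjusted p = 0.229), Trim24 had 0.33 (SE 0.15, limma adjusted p = 0.384), and Adar, which edits double-stranded RNA, had -0.44 (SE 0.22, limma adjusted p = 0.421).

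Interferon-stimulated genes that the list leaves out lay in the same direction with a median nearer 0. Of 64 listed, 53 were tested, 38 below 0 on the scaled values and 6 on the values as deposited, with a scaled median of -0.11, and 9 (17.0%) had an unadjusted p under 0.05, against 13.8% of all tested genes. In 10 of the 53 (18.9%) the groups did not overlap, near the 19.7% of all tested genes in either direction, and all 10 were lower in KO livers, against 9.06% of all tested genes that were lower. WT replicate 2 was the highest library in 25 of the 53 and KO replicate 3 the lowest in 21. Shfl, an inhibitor of ribosomal frameshifting, had -0.77 (SE 0.19, limma adjusted p = 0.119), Uba7, the activating enzyme of ISG15, had -0.89 (SE 0.25, limma adjusted p = 0.151), and the helicase Ddx60 had -0.54 (SE 0.17, limma adjusted p = 0.189). Shfl passed the threshold without WT replicate 1 (limma adjusted p = 0.0180), with sample weights (0.0133) and with the replicate block (0.0381), and its adjusted p ran from 0.0133 to 0.673 over all alternatives. With sample weights and with the block Uba7 (limma adjusted p = 0.0229 and 0.0183) and Ddx60 (0.0447 and 0.0497) passed as well, over ranges of 0.0183 to 0.737 for Uba7 and 0.0447 to 0.967 for Ddx60. Cxcl10, a chemokine induced by interferons, had 231, 216 and 148 scaled FPKM in KO replicates 1, 2 and 3, against 244, 405 and 252 scaled FPKM in WT replicates 1, 2 and 3. KO replicate 1 lay just under WT replicate 1 and WT replicate 2 stood far above the rest, with a log2 fold change of -0.58 (SE 0.25, limma adjusted p = 0.348).

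**Figure D4:**
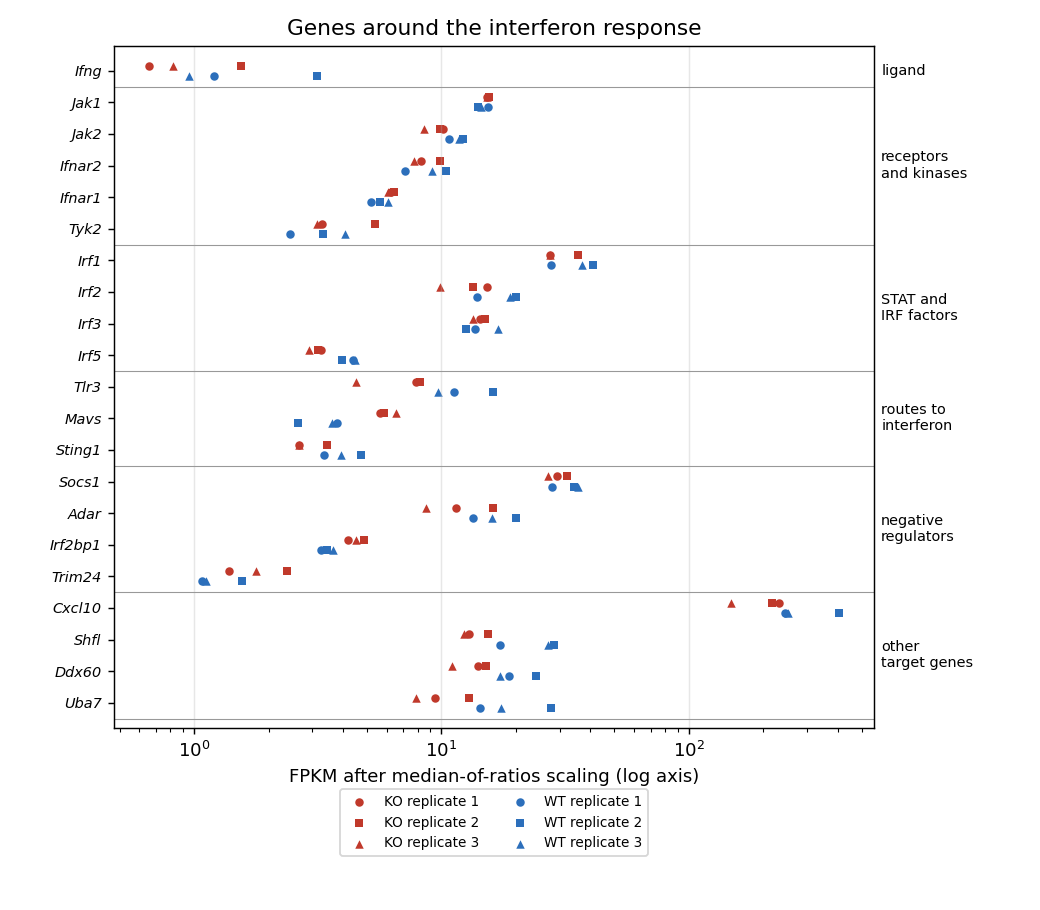
Level of named genes around the interferon response (y axis) in scaled FPKM on a log axis, with 1 point per library, 3 for KO livers and 3 for WT livers. The Mavs points of KO livers, 5.64 to 6.56 scaled FPKM, lie right of those of WT livers, 2.63 to 3.77, and the Tlr3 points of KO livers lie left of those of WT livers.

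The libraries held the hepatocyte markers that the label liver calls for. Of 90 cell type markers listed, 45 were tested and 0 of these were called. An unadjusted p under 0.05 was reached by 6 of the 45, against 13.8% of all tested genes. The remaining markers, all of the dendritic cell markers among them, lay below the expression limit or had no row. The summed hepatocyte markers were at 20934 to 26101 scaled FPKM in KO livers, against 23138 to 30373 in WT livers. Macrophage and Kupffer cell markers summed to 52.0 to 78.3 scaled FPKM in KO livers, against 56.2 to 82.4 in WT livers. Among them, 3 of 9 tested markers had an unadjusted p under 0.05, against 13.8% of all tested genes in either direction. These 3 were all lower in KO livers and chosen here after their values were seen. Timd4, a receptor of resident Kupffer cells, had 0.913, 0.873 and 0.843 scaled FPKM in KO replicates 1, 2 and 3, against 2.18, 1.69 and 1.60 scaled FPKM in WT replicates 1, 2 and 3, and the log2 fold change was -0.58 (SE 0.11, limma adjusted p = 0.0588), so it came nearer a call than any interferon-stimulated gene of the list. The log2 fold change was -0.55 for Vsig4 (limma adjusted p = 0.198) and -0.54 for Cd5l (limma adjusted p = 0.221), while it was 0.04 for Clec4f (limma adjusted p = 0.957). The other tested markers of this list lay at 0.17 for Marco, 0.07 for C1qc, -0.02 for C1qa, -0.06 for Cd68 and -0.15 for C1qb. Timd4 rested on 70 to 88 reads in a KO library and 93 to 139 in a WT library. Vsig4 rested on 60 to 124 reads in a KO library and 68 to 132 in a WT library. Monocyte markers summed to 94.7 to 126 scaled FPKM in KO livers, against 110.3 to 142 in WT livers. Neutrophil markers summed to 123 to 129 scaled FPKM in KO livers, against 115 to 171 in WT livers, with WT replicate 2 highest. Plasmacytoid dendritic cells are a main source of interferon alpha, and their markers summed to 1.04 to 1.58 scaled FPKM in KO livers, against 1.12 to 1.79 in WT livers, with Siglech at 0.335 or less in every library. Conventional dendritic cell markers summed to 0.477 to 0.818 scaled FPKM in KO livers, against 0.478 to 1.11 in WT livers. B cell markers summed to 2.75 to 5.22 scaled FPKM in KO livers, against 2.07 to 4.17 in WT livers. Endothelial markers summed to 19.3 to 24.9 scaled FPKM in KO livers, against 20.3 to 30.3 in WT livers. Of the 6 tested, 1 had an unadjusted p under 0.05, namely Stab2, a scavenger receptor of these cells. Stab2 had 2.06, 1.64 and 2.87 scaled FPKM in KO replicates 1, 2 and 3, against 3.79, 4.32 and 3.81 scaled FPKM in WT replicates 1, 2 and 3. Its log2 fold change was -0.66 (SE 0.15, limma adjusted p = 0.0870). The other tested endothelial markers lay at 0.02 for Stab1, -0.02 for Fcgr2b, -0.05 for Oit3, -0.21 for Lyve1 and -0.32 for Clec4g. Stellate cell markers, most of whose sum is Dcn, summed to 26.3 to 27.7 scaled FPKM in KO livers, against 26.1 to 34.5 in WT livers. Lrat, the retinol-storing enzyme of stellate cells, lay below the expression limit for testing, at 0.253 to 0.340 scaled FPKM in KO livers, against 0.979 to 1.95 in WT livers. Col1a1, of the same list and also not tested, went the other way, at 0.688 to 1.31 scaled FPKM in KO livers, against 0.513 to 0.686 in WT livers. The 2 tested markers of the list had log2 fold changes of -0.16 for Dcn and 0.11 for Col3a1. Cholangiocyte markers summed to 38.9 to 74.9 scaled FPKM in KO livers, against 40.8 to 61.9 in WT livers, and erythroid markers to 206 to 328 in KO livers, against 133 to 314 in WT livers. The cholangiocyte marker Epcam, with a log2 fold change of 0.35 (SE 0.10, limma adjusted p = 0.175), lay higher in KO livers. So did the erythroid marker Hbb-bt, at 0.76 (SE 0.29, limma adjusted p = 0.297), and both had an unadjusted p under 0.05. Epcam passed the expression limit through its KO libraries alone, at a deposited FPKM of 1.24, 1.90 and 1.69, against 0.588, 0.642 and 0.780 in WT livers. Its p-value was thus tied to the limit and is no support for a difference, although it is 1 of the 6 counted above. The part of cell makeup in the interferon-stimulated gene levels was not tested.

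The median of the list lay below that of all tested genes in every way of processing that was run. The gap between the medians was least without KO replicate 3 and WT replicate 2 together, at -0.01 for the list and 0.00 for all tested genes. Those libraries were picked as the lowest and the highest over the list, which by itself narrows the gap. The single setting that put the list median above 0 was the use of the values as deposited, at 0.33, where the median of all tested genes was 0.45.

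**Figure D5:**
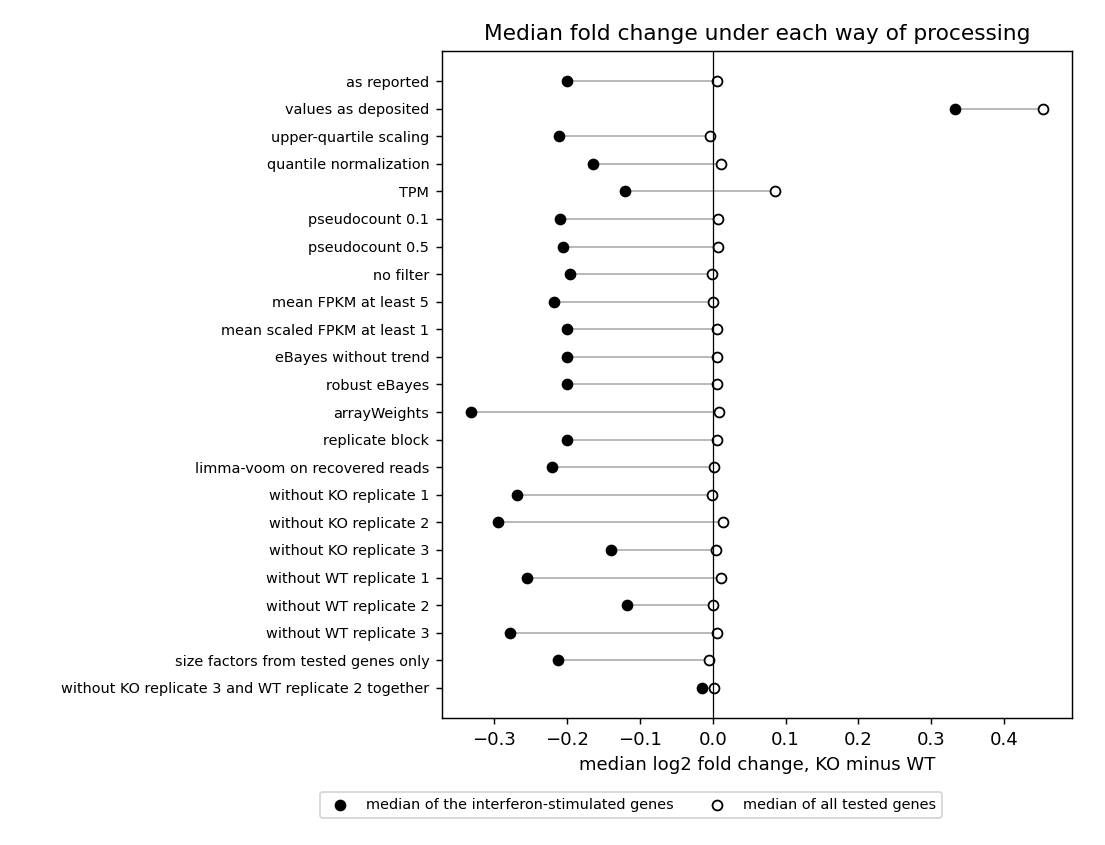
Median log2 fold change, KO minus WT, of the interferon-stimulated genes (filled points) and of all tested genes (open points) under each way of processing (y axis). The list median is -0.20 as reported, lies left of the median of all tested genes in every row, and comes closest to it without KO replicate 3 and WT replicate 2 together.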

How the data were processed

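RNA was sequenced in 3 KO and 3 WT libraries of mouse liver taken 6 h after LPS. The deposited table holds FPKM per gene, computed by the authors, with HISAT2 2.0.5 named per the submitters' processing notes; the sources used here give no counting tool, annotation, strand setting or role of the builds named. FPKM steps gave whole reads for 19613 of 19613 rows (tolerance 0.0001 reads). From the FPKM, median-of-ratios factors over genes above 0 in every library were computed, values were divided by them, and log2(scaled FPKM + 1) was fitted with limma 3.58.1 in R 4.3.3 (lmFit, eBayes with trend, two-sided) on genotype alone, with Benjamini-Hochberg adjustment over 9218 genes with deposited FPKM of at least 1 in at least 3 libraries. The fit was tested on simulated data. Replicate numbers were not used to pair libraries. Per-library values are given for the 12 tested genes with the lowest p and the 6 with the highest mean FPKM; of each surrounding list, the 3 genes with the lowest p and a set of named genes are given. Genes and lists were chosen with earlier results of these data known. Promoters are from RefSeq, GRCm38.p6. The targeted gene and some other genes are not reported here. Alternatives covered scaling, pseudocount, filter, variance moderation, sample weights, replicate block, limma-voom on recovered reads and leaving out libraries.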

Additional observations from a re-analysis of the deposited data

How the results depend on the processing

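The 37 tested genes and the 21 other named genes gave 1327 single-gene values under 23 other settings, of which 1211 kept their direction and their side of the threshold, 87 changed direction and 29 kept their direction and passed the threshold where they had not. The cause was not tested, save that a setting with fewer genes or libraries tests less. On the values as deposited 2703 genes were called, 4 interferon-stimulated genes among them, namely Isg20, Stat2 and Bst2 as higher and Mx1 as lower in KO livers, the list median was 0.33 and 13 of its genes (35.1%) did not overlap, all higher in KO livers, against 47.9% of all tested genes. Quantile normalization left 4 (10.8%) that did not overlap, against 20.6% of all tested genes. Genes called over the whole table numbered 104 as reported, 31 with no filter, 64 with a mean FPKM of at least 5, 218 at an adjusted p under 0.1, and 35 without KO replicate 3 and WT replicate 2 together, which was chosen after seeing the data, as was the use of tested genes alone for the scaling factors, which called 99. Sample weights (arrayWeights) called 436 genes, Mx1 and Ifit1 among them. The fit with the replicate number as a block called 290 genes and 2 interferon-stimulated genes, Mx1 (limma adjusted p = 0.0309) and Mx2 (0.0347). The same-numbered libraries share only a number: their deviations correlated at 0.33, 0.47 and 0.02 for replicates 1, 2 and 3, and KO replicate 3 correlated best with WT replicate 1, at 0.36.

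Leaving out each library in turn gave 21 to 126 genes called, 8 to 15 interferon-stimulated genes that did not overlap, a list median of -0.29 to -0.12 and 0 interferon-stimulated genes called. Fewest genes were called without KO replicate 1 (21), KO replicate 3 (56), WT replicate 2 (58) and WT replicate 3 (64). Groups of 3 against 2 libraries overlap less often: the genes that did not overlap numbered 15 (40.5%, against 29.1% of all tested genes) without KO replicate 1, 14 (37.8%, against 34.3%) without WT replicate 1 and 14 (37.8%, against 31.4%) without WT replicate 3. Genes whose direction changed when a library was left out were Epsti1 at -0.21 to 0.18, Ifi35 at -0.18 to 0.054, Ifi44 at -0.11 to 0.074, Ifih1 at -0.13 to 0.034, Ifnar2 at -0.17 to 0.077, Irf3 at -0.092 to 0.11, Irf9 at -0.16 to 0.15, Isg15 at -0.13 to 0.16, Isg20 at -0.058 to 0.25, Oas2 at -0.32 to 0.21, Oas3 at -0.073 to 0.17, Samd9l at -0.23 to 0.058 and Stat2 at -0.25 to 0.28. With KO replicate 3 and WT replicate 2 left out together, the log2 fold changes that changed direction were Oas1g at 0.091, Irf7 at 0.042, Irf9 at 0.32, Ifih1 at 0.020, Ifi44 at 0.16, Ifi35 at 0.16, Ifi204 at 0.080, Samd9l at 0.21, Epsti1 at 0.28 and Ifnar2 at 0.15. In TPM they were Irf9 at 0.074, Ifih1 at 0.057, Ifi44 at 0.071, Ifi35 at 0.020, Epsti1 at 0.018, Ifnar2 at 0.050 and Irf3 at 0.081, after quantile normalization Isg15 at -0.029, Irf9 at 0.035, Ifih1 at 0.046, Ifi44 at 0.025 and Ifi35 at 0.030, and with sample weights Isg15 at -0.058, Isg20 at -0.10, Oas2 at -0.30, Stat2 at -0.32 and Tyk2 at -0.019. On the values as deposited, where the median of all tested genes was 0.45, they were Ifit2 at 0.32, Ifit3 at 0.15, Ifit3b at 0.30, Oas1a at 0.39, Oas1g at 0.33, Oasl1 at 0.017, Oasl2 at 0.22, Irf7 at 0.40, Irf9 at 0.53, Usp18 at 0.22, Ifih1 at 0.52, Dhx58 at 0.056, Herc6 at 0.39, Rtp4 at 0.20, Ifi44 at 0.52, Ifi27l2a at 0.33, Zbp1 at 0.21, Parp14 at 0.042, Xaf1 at 0.30, Eif2ak2 at 0.35, Ifi35 at 0.49, Ifi204 at 0.34, Samd9l at 0.45, Epsti1 at 0.38, Sp100 at 0.10, Helz2 at 0.15, Ifnar2 at 0.47, Irf3 at 0.52, Socs1 at 0.41, Jak2 at 0.25, Irf5 at 0.080, Irf2 at 0.088, Irf1 at 0.34, Sting1 at 0.093 and Adar at 0.085. Depth limits Ifng, Ifnab, Ifnk and Ifit1bl1, with at most 136 reads in a library.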
